A study of Mus musculus with 4 samples.

Results

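The troponin and tropomyosin genes are described here in mouse hearts with and without a conditional knockout of Nat10, an RNA cytidine acetyltransferase. They were taken by gene name: Tnnc1, Tnni1, Tnni3, Tnnt1, Tnnt2, Tnnt3, Tpm1, Tpm2, Tpm3 and Tpm4, which make 10 of the 55382 genes in the deposited tables. Ribosome profiling, the sequencing of mRNA fragments shielded by ribosomes, had been carried out on hearts of mice aged 15 days. There were 2 control libraries, titled WT with library names in FF (the design text speaks of NAT10-FF mice), and 2 knockout libraries, titled KO, from NAT10-CKO mice. Neither the promoter that drives the deletion nor the strain is named in the labels, and the labels name no agent that differs between the groups. The labels name cardiomyocytes as the cell type, but the protocol lyses heart tissue, and markers of other cells were present. All libraries shared 1 batch label and the translation inhibitor cycloheximide at 100 µg/mL. Nothing in the labels says that replicates came from separate animals, so the p-values rest only on how far these libraries spread, and that spread may be technical.

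Troponin and tropomyosin make the thin actin filament of striated muscle sensitive to calcium. Troponin C binds calcium, troponin I holds the filament off in the absence of calcium, and troponin T ties both to tropomyosin, a coiled-coil dimer that lies along actin and covers or exposes its myosin-binding sites. The heart uses Tnnc1, Tnni3, Tnnt2 and Tpm1. Tnni1, the slow skeletal troponin I, is the main form of the embryonic heart and gives way to Tnni3 around birth. Tnnt1 and Tnnt3 are the slow and fast skeletal troponin T genes, and Tpm2, Tpm3 and Tpm4 serve slow skeletal muscle, smooth muscle and non-muscle cells.

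Each gene has a footprint level in FPKM (fragments per kilobase of gene, scaled to the mapped fragments of the library) and a translation efficiency (TE), which is the footprint level over an RNA level. The RNA level was recovered as the quotient of both and is called the implied RNA level. Summed FPKM ran from 7042000 to 8735000 per library, and 16425 to 16900 genes lay above 0. The depth in reads is unknown, so no counting interval is given. Nat10 read 77.3 and 73.9 FPKM in WT, against 40.01 and 52.1 in KO (-0.71 on the log2 scale with an SE of 0.30, limma adjusted p = 0.295). Most genes read higher in KO, with a median log2 difference of 0.36 for footprints, 0.22 for RNA and 0.15 for TE, and several values below are also given relative to that median. Summed over 10 cardiomyocyte markers, footprints were 107800 and 115700 FPKM in WT, against 59180 and 68490 in KO, and none of the 10 was listed at 0. The sum over 12 fibroblast markers was 21570 to 27180 in WT and 58100 to 73080 in KO, with all 12 above both WT libraries in both KO libraries (39.5% of all tested genes were). In whole tissue, fewer cells of a type and less RNA per cell cannot be told apart.

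Tpm2 had the largest log2 difference of the members in footprints and in RNA, also relative to the median of all genes. Tpm4 came next on the deposited scale but not relative to that median, where Tnnt1, Tpm1 and Tnnt2 lay farther from 0 in footprints and Tnnt2 in RNA. The RNA of Tpm2 and Tpm4 rose in KO, by 5.06-fold and 2.25-fold, while that of Tpm1, the cardiac form, did not pass the test. The 250 bases before the 1 start listed for each of these 3 genes are shown because the genes of a single family lay on different sides of the median of all genes. They are RefSeq sequences of GRCm38.p6, written on the gene's strand and ending at the base before that start. The listed start need not be the outer end of the gene. The Tpm1 window lies inside the annotated gene, which reaches to 67049672. The Tpm2 window overlaps its gene, which reaches to 43523583.

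Tpm1, chr9:67049214-67049463, minus strand: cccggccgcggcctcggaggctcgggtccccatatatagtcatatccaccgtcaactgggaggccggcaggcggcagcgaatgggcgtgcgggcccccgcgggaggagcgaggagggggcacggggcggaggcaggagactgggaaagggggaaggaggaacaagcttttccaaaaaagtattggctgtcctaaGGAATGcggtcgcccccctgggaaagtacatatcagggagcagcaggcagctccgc
Tpm2, chr4:43523555-43523804, minus strand: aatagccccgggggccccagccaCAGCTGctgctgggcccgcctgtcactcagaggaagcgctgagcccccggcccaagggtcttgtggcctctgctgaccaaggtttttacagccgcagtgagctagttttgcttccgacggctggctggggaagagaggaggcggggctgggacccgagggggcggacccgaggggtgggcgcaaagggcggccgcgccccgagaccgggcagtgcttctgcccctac
Tpm4, chr8:72135038-72135287, plus strand: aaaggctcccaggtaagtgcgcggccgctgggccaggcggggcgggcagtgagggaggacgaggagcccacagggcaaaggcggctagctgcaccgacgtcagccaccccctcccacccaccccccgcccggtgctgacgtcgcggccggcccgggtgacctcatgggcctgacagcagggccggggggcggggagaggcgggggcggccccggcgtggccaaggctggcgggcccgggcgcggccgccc

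Capitals mark matches to a set of motifs common in muscle promoters, searched on both strands. Tpm1 holds 1 match to the MCAT motif CATTCC, bound by TEAD factors, from 56 to 51 bases before the start on the opposite strand. Tpm2 holds 1 match to the E-box CAGCTG, a site type of myogenic factors, from 227 to 222 bases before the start. Tpm4 holds none of the motifs, which also included the TATA box TATAAA, the GATA factor motif written as GATAA and the CArG box. Of 32851 promoter windows of this length, 12.6% hold the MCAT motif, 13.0% the E-box, 12.4% the TATA box, 22.6% the GATA motif and 1.47% a CArG box. The windows of Tpm1, Tpm2 and Tpm4 have 65.2%, 69.6% and 78.8% G and C against a median of 52.4%. A match describes the letters only. Windows were found for 9 of the 10 members, and among these the MCAT motif stood in Tnnc1, Tnnt2 and Tpm1 and the TATA box in Tnnt1. Tnni1, Tnnt2, Tpm2 and Tpm3 held the E-box, Tnnt2 and Tpm3 held the GATA motif, and 0 held a CArG box. Members were counted by gene, with a match in any window, and Tnni1, Tnnt2 and Tpm3 have 2 windows each. The shares above are per window, so they are not on the same footing.

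The members fell into a set with high and a set with low footprint levels, a split of level and not of TE. In WT the TE of Tnnt2, of the high set, was 2.80 and 2.56, against 3.78 and 2.60 for Tnnt1, of the low set. In the WT libraries Tpm1 stood highest at 43482 ± 3369 FPKM (SD, n = 2), followed by Tnni3 at 15829 ± 1093, Tnnt2 at 9527 ± 516 and Tnnc1 at 8268 ± 499. The range of each lay clear of the next. Tpm4 came next at 156 ± 30.02 FPKM, far below Tnnc1. Tnni1 at 81.3 ± 64.8 and Tnnt1 at 50.7 ± 16.8 overlapped, as did Tpm3 at 29.7 ± 11.7 and Tpm2 at 22.5 ± 14.7. In KO the order of Tnnc1 (8301 ± 260) and Tnnt2 (7150 ± 2799) could not be told apart, and Tpm2 at 163 ± 10.4 FPKM stood above Tnni1 at 114 ± 30.7. FPKM is scaled by gene length, and the order of the genes rests on that scaling. It also rests on how reads that fit several genes were assigned, which the labels do not say.

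**Figure D1:**
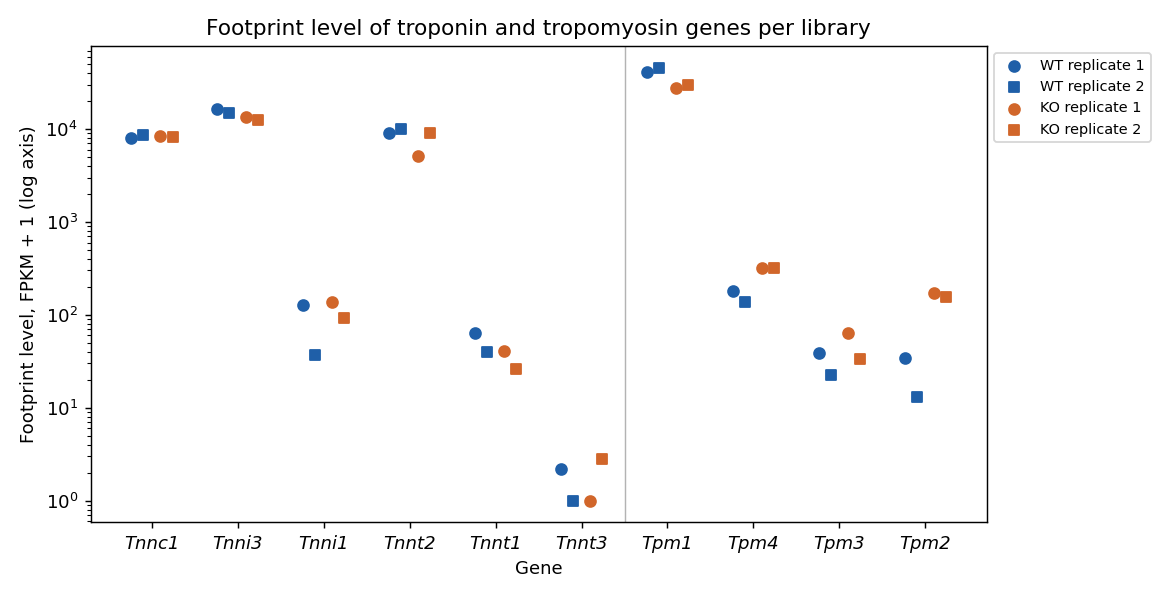
Footprint level (FPKM + 1, log axis) of the 10 genes in each library, troponins left and tropomyosins right of the grey line. Blue points are the 2 WT and orange points the 2 KO libraries; Tpm2 and Tpm4 lie higher in both KO libraries, and Tpm1, Tnni3 and Tnnt2 lie lower.

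For footprints all 10 members passed the floor of 1 FPKM in at least 2 libraries and were tested with limma on log2(FPKM + 1), a scale that understates the change of low genes. None passed at an adjusted p of 0.05, against 0.379% of the 15031 genes tested (57 genes, with 2599 at an unadjusted p under 0.05). Tpm2 and Tpm4 lay above both WT libraries in both KO libraries, a separation found in 39.5% of tested genes. Tpm1, Tnni3 and Tnnt2 lay below, as 12.1% of tested genes did. The median log2 difference of the members was 0.10 against 0.36 over all tested genes, and 4 members lay above that median and 6 below. For RNA, 9 members were tested, since Tnnt3 lacked a TE in 2 libraries. There 2 rose (Tpm2 and Tpm4), against 4.2% of 12529 genes, and 0 fell, against 1.53%. The KO libraries lay above WT for Tpm2, Tpm3 and Tpm4 (44.2% of tested genes) and below for Tnnt1, Tnnt2 and Tpm1 (18.6%). For TE, 0 of 9 members and 0% of the 12529 genes passed limma's test, with 759 genes at an unadjusted p under 0.05. The TE of 0 members lay above WT in both KO libraries (24% of tested genes) and that of 1, Tnnc1, below (12%).

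**Figure D2:**
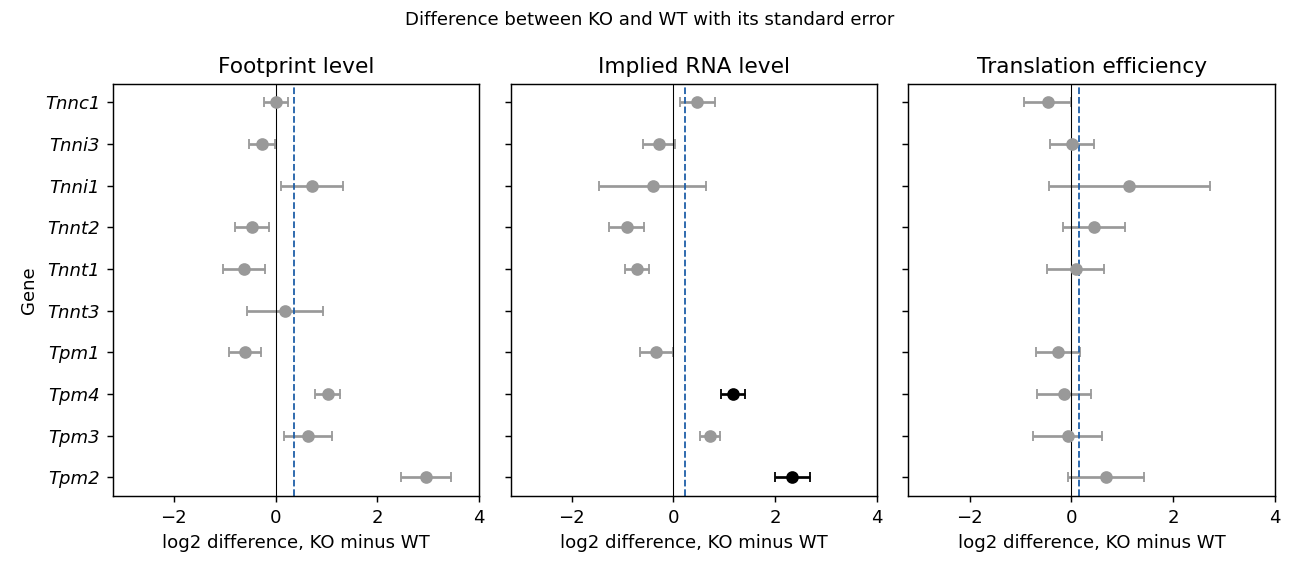
Log2 difference between KO and WT (points) with its standard error (bars) for footprints, implied RNA and TE, n = 2 libraries per group. Black points passed an adjusted p of 0.05, the dashed line is the median of all tested genes, and Tnnt3 has no RNA or TE comparison; Tpm2 and Tpm4 stand to the right in RNA, at 2.34 and 1.17.

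Tpm2 codes for beta-tropomyosin and lies on chromosome 4 from 43513726 to 43523583 (GRCm38, protein-coding, as are all members). Its footprints read 32.9 and 12.1 FPKM in WT, against 171 and 156 in KO. Both KO libraries lay far above both WT libraries, which themselves differed 2.7-fold. The log2 difference was 2.96 (SE 0.49, adjusted p = 0.107), or 2.60 relative to the median, and 0.719% of tested genes had a larger one. Leaving out WT replicate 1 gave 3.65, and leaving out WT replicate 2 gave 2.28. The difference passed when small RNA genes and unnamed models were left out of the test (adjusted p = 0.0207). RNA stood at 11.9 and 15.2 FPKM in WT, against 94.5 and 49.1 in KO. It rose by 2.34 on the log2 scale (SE 0.34, limma adjusted p = 0.0261). With a library left out the RNA difference ranged from 1.87 (without KO replicate 1) to 2.81 (without KO replicate 2). The call was lost without the mean-variance trend (adjusted p = 0.0585). The TE overlapped between groups, at 2.76 and 0.80 in WT, against 1.80 and 3.17 in KO (0.69 on the log2 scale with an SE of 0.75, adjusted p = 0.918).

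Tpm4, a non-muscle tropomyosin, lies on chromosome 8 from 72135288 to 72153142. It read 178 and 135 FPKM of footprints in WT, against 316 and 317 in KO (1.03 on the log2 scale with an SE of 0.25, adjusted p = 0.171). The KO libraries nearly coincided and stood above both WT libraries. Its RNA was 56.1 and 63.6 FPKM in WT, against 155 and 117 in KO, a rise of 1.17 (SE 0.23, limma adjusted p = 0.0434). That call was lost without WT replicate 1 (adjusted p = 0.237), without WT replicate 2 (0.0844) and without the trend (0.0844). The TE read 3.16 and 2.12 in WT, against 2.04 and 2.72 in KO, with no separation of the groups (adjusted p = 0.985).

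Tpm3, the slow skeletal and cytoskeletal gene on chromosome 3 (90072651 to 90100902), overlapped in footprints, at 37.9 and 21.4 FPKM in WT, against 61.9 and 32.5 in KO (0.64 on the log2 scale with an SE of 0.48, adjusted p = 0.509). Its RNA was 41.1 and 42.8 FPKM in WT, against 75.5 and 63.4 in KO (0.72 on the log2 scale with an SE of 0.20, adjusted p = 0.083). Leaving out KO replicate 1 gave 0.595, and leaving out KO replicate 2 gave 0.847. The RNA groups were clear of each other, but the difference relative to the median was 0.50. Its TE was the lowest of the 4 tropomyosins in each library, at 0.50 to 0.92. Reads of Tpm3 may be shared with related loci such as Tpm3-rs7, which was listed at 0 in WT and at 2.38 and 0.66 FPKM in KO. The tropomyosin genes are similar in sequence, and the labels do not say how reads that fit several of them were assigned.

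Tpm1, alpha-tropomyosin, on chromosome 9 from 67022590 to 67049672, read 41100.1 and 45865 FPKM of footprints in WT, against 27367 and 29969.7 in KO. Both KO libraries were lower, at 0.66 times WT (-0.60 on the log2 scale with an SE of 0.31, adjusted p = 0.363). Relative to the median the difference was -0.96. Its RNA was 3327 and 3549 FPKM in WT, against 3085 and 2399 in KO (-0.34 on the log2 scale with an SE of 0.32, adjusted p = 0.518). Its TE of 8.87 to 12.9 was the highest of the tropomyosins. The footprints of Tpm1 were 0.31 and 0.27 times those of Actc1, the cardiac actin it lies along, in WT, against 0.315 and 0.324 times in KO.

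As a share of the summed Tpm1 to Tpm4 footprints, Tpm1 held 99.4% and 99.6% in WT, against 98.03% and 98.3% in KO. In RNA its share was 96.8% and 96.7% in WT, against 90.5% and 91.3% in KO. Tpm2 made up 0.080% and 0.026% of footprints in WT, against 0.61% and 0.51% in KO, and 0.35% and 0.41% of RNA in WT, against 2.77% and 1.87% in KO. Tpm4 made up 0.43% and 0.29% of footprints in WT, against 1.13% and 1.04% in KO, and 1.63% and 1.73% of RNA in WT, against 4.54% and 4.44% in KO. The groups were separate in each of these shares, and the exact two-sided permutation test gave p = 0.333, the smallest value that 2 libraries against 2 can give. Shares do not depend on how libraries are scaled against each other.

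**Figure D3:**
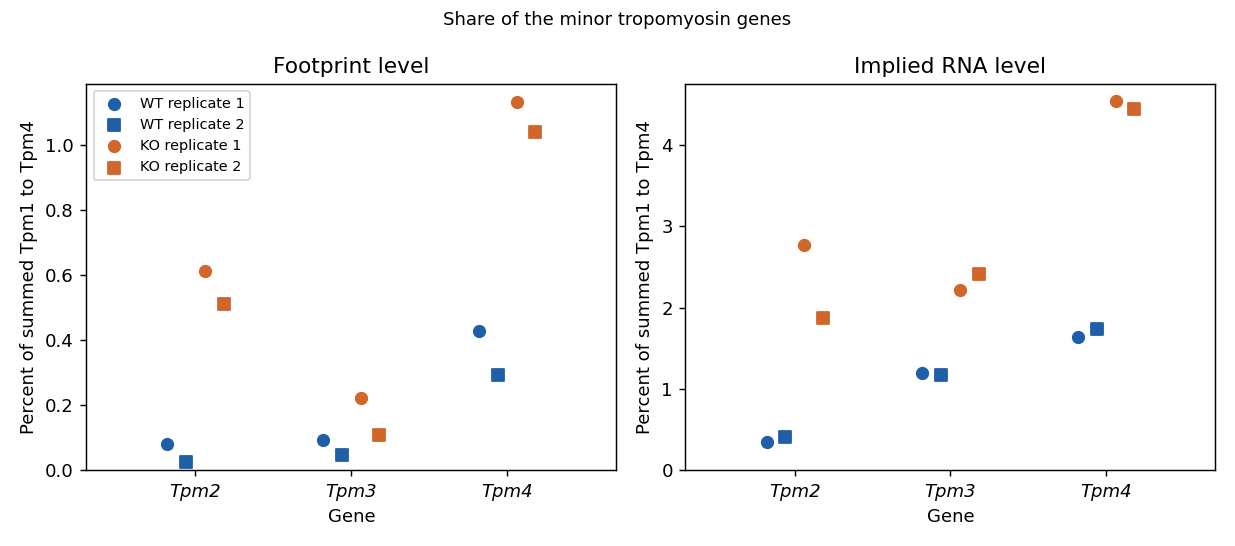
Share of Tpm2, Tpm3 and Tpm4 in the summed level of the 4 tropomyosin genes, in percent, for footprints (left) and implied RNA (right). Each point is a library; both KO points lie above both WT points in all 6 columns, with Tpm4 near 4.5% of RNA in KO against 1.63% and 1.73% in WT.

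Markers of cells that use Tpm2 and Tpm4 were read beside them. In RNA, 7 of 12 fibroblast markers lay above both WT libraries in both KO libraries (44.2% of all tested genes did) and 1 below, with a summed level of 1272 and 1711 FPKM in WT, against 3349 and 2526 in KO. The ratio of Tpm2 RNA to each of the 12 fibroblast markers was higher in both KO libraries for 11 markers and overlapped for Postn. The ratio of Tpm4 RNA to them was higher in both KO libraries for 6 (Col3a1, Pdgfra, Dcn, Lum, Dpt and Ddr2), lower for 3 (Tcf21, Postn and Vim) and overlapped for 3 (Col1a1, Col1a2 and Fn1). Whether Tpm4 RNA stood apart from fibroblast RNA thus depended on the marker. In footprints the ratio of Tpm2 was higher for 10 of the 12 and overlapped for 2, while that of Tpm4 was lower for 6 and overlapped for 6. Of 8 macrophage markers, 7 lay above and 0 below WT in RNA, with sums of 124 and 119 FPKM in WT, against 290 and 226 in KO. In footprints 3 of them lay above and 0 below, and the sums overlapped, at 606 and 1015 FPKM in WT, against 960 and 1997 in KO. Of 8 endothelial markers, 5 lay above and 0 below WT in footprints, and 2 above and 1 below in RNA. Over all tested genes, 39.5% lay above and 12.1% below WT in footprints, and 44.2% above and 18.6% below in RNA. Of the 10 smooth muscle markers, 4 were above and 3 below WT in footprints, with sums of 4403 and 5000 FPKM in WT, against 4721 and 3210 in KO. In RNA 5 were above and 4 below, with overlapping sums of 546.5 and 613.7 FPKM in WT, against 611 and 391.5 in KO. Acta2, smooth muscle actin, read 3365 and 3959 FPKM of footprints in WT, against 2721 and 1816 in KO. Tagln, which marks smooth muscle and activated fibroblasts, read 169 and 128 in WT, against 844 and 641 in KO. Tagln passed limma's test in footprints (adjusted p = 0.0407, as 0.379% of tested genes did) and rose in RNA (0.0443, 4.2%). In RNA 2 smooth muscle markers fell past the threshold, Smtn (limma adjusted p = 0.0340) and Pcp4l1 (0.0217), against 1.53% of tested genes. The part of these cells in the Tpm2 and Tpm4 values was not tested.

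Tnnc1, which codes for cardiac and slow skeletal troponin C on chromosome 14 (31208312 to 31211729), read 7915 and 8621 FPKM of footprints in WT, against 8484 and 8117 in KO. The groups overlapped (0.01 on the log2 scale with an SE of 0.24, adjusted p = 0.99), and after median-ratio scaling the value was -0.37 (adjusted p = 0.61). Its RNA was 1392 and 1818 FPKM in WT, against 2753 and 1770 in KO (0.47 on the log2 scale with an SE of 0.34, adjusted p = 0.395). The TE read 5.69 and 4.74 in WT, against 3.08 and 4.59 in KO, lower in both KO libraries (-0.47 on the log2 scale with an SE of 0.47, adjusted p = 0.915).

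Tnni3, cardiac troponin I, lies on chromosome 7 from 4518305 to 4522718. It read 16601 and 15056 FPKM of footprints in WT, against 13609 and 12623 in KO (-0.27 on the log2 scale with an SE of 0.26, adjusted p = 0.61). Both KO libraries were lower by a small margin, and 82.5% of tested genes had a larger log2 difference. Its RNA overlapped at 2603 and 2928 FPKM in WT, against 2648 and 1943 in KO (log2 difference -0.28, adjusted p = 0.589), and so did its TE at 6.38 and 5.14 in WT, against 5.14 and 6.50 in KO. Over the 4 libraries the footprint profile of Tnni3 was closest to those of Mrpl58, Arhgap12 and Ndufb3 (Euclidean distance of centred log2 values 0.026, 0.036 and 0.050), among named genes outside the list.

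Tnni1, slow skeletal troponin I, lies on chromosome 1 from 135783033 to 135810989. Its footprints read 127 and 35.5 FPKM in WT, against 135 and 91.9 in KO. WT replicate 1 reached the level of the KO libraries, and the groups overlapped (0.72 on the log2 scale with an SE of 0.61, adjusted p = 0.562). Without WT replicate 2 the log2 difference was -0.19, and without WT replicate 1 it was 1.62. Its nearest profiles were those of Tsc22d2, Plet1os and Dpf1 (distance 0.134, 0.164 and 0.164), of which Plet1os and Dpf1 did not exceed 2.49 FPKM. Tnni2, the fast skeletal troponin I, which is not a member, read 8.75 and 5.37 FPKM in WT, against 0.88 and 0.95 in KO (-2.04 on the log2 scale with an SE of 0.54, adjusted p = 0.187).

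The Tnni1 to Tnni3 ratio, which follows the change from the embryonic to the adult troponin I, was below 1 percent in footprints in every library. Tnni1 stood at 0.766% and 0.236% of the Tnni3 level in WT and at 0.994% and 0.728% in KO. KO replicate 2 lay below WT replicate 1, so the groups overlapped. The mean log2 ratio was 1.00 higher in KO (exact two-sided permutation p = 0.667), and the difference was 1.85 when WT replicate 1 was left out and 0.15 when WT replicate 2 was. Tnni3 varied little, so the ratio moved with Tnni1.

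In RNA the same ratio was 0.136% and 1.54% in WT, against 0.492% and 0.356% in KO, with a log2 difference of -0.13 (exact two-sided permutation p = 1.0). The WT libraries lay on either side of both KO libraries. The library with the least Tnni1 footprints, WT replicate 2, had the most Tnni1 RNA, at 45.1 FPKM against 3.53 in WT replicate 1 and 13.01 and 6.92 in KO. Its TE was therefore 36.02 in WT replicate 1 and 0.79 in WT replicate 2, a 45.8-fold range within WT, against 10.4 and 13.3 in KO (1.14 on the log2 scale with an SE of 1.58, adjusted p = 0.939). The RNA of Tnni1 passed limma's test in opposite directions with single WT libraries, at -2.25 without WT replicate 1 (adjusted p = 3.95e-05) and at 1.43 without WT replicate 2 (adjusted p = 0.0266). Without WT replicate 1 its TE also passed, at 3.90 (adjusted p = 0.0457).

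The atrial myosin light chain genes varied between the libraries of a group too. Myl7 RNA was 0.26 and 94.2 FPKM in WT, against 44.1 and 0.25 in KO. Myl4 RNA was 2.50 and 45.0 FPKM in WT, against 46.3 and 2.65 in KO. Sln, the atrial sarcolipin, had 0.056 and 6.33 FPKM of RNA in WT, against 2.00 and 0.11 in KO. WT replicate 2 and KO replicate 1 thus held far more RNA of these genes than the other libraries, and Tnni1 RNA was also highest in these 2 libraries. In footprints Myl7 differed less, at 59.8 and 162 FPKM in WT, against 312 and 47.6 in KO, and its TE was 228 and 1.72 in WT, against 7.08 and 190 in KO. Footprints of Myl4 (41.3 and 136 FPKM in WT, 369 and 59.4 in KO) and Sln (1.83 and 6.44 in WT, 9.48 and 1.58 in KO) were also highest in these 2 libraries. Those of Tnni1 were not, at 127 and 35.5 FPKM in WT, against 135 and 91.9 in KO. Over a list of 7 atrial genes chosen after these values were seen, the summed RNA was 26.01 and 176 FPKM in WT, against 126 and 30.6 in KO, with Kcnj3, Nr2f2 and Dkk3 not following this order and Bmp10 having an RNA value in KO replicate 1 only. The part of atrial tissue in the Tnni1 values was not tested.

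**Figure D4:**
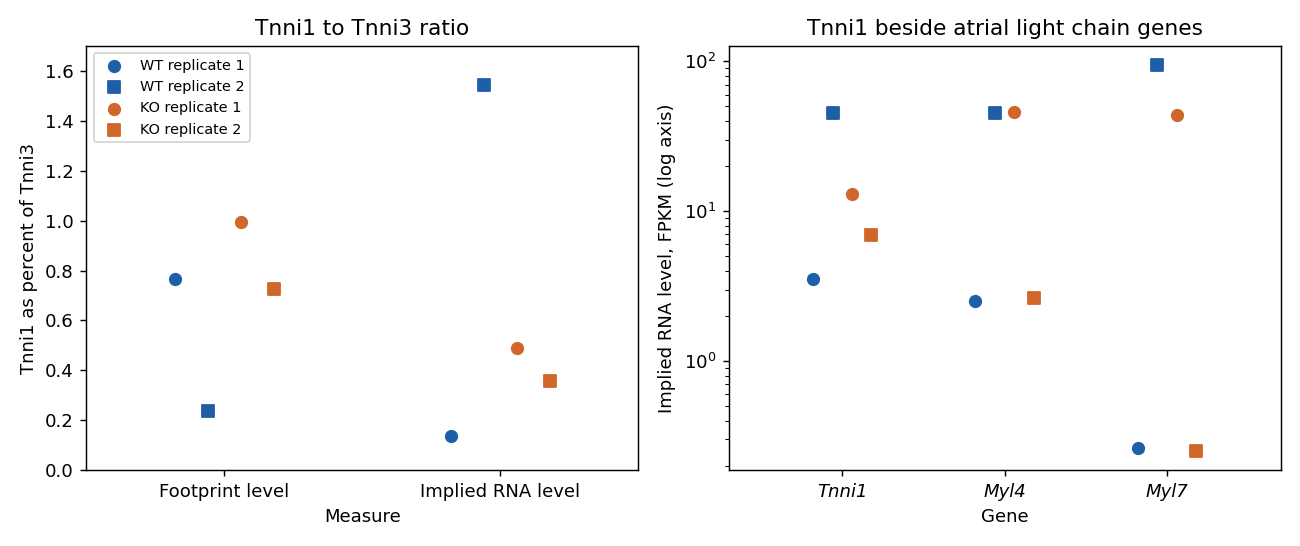
Left, Tnni1 as a percentage of Tnni3 in each library for footprints and implied RNA. Right, implied RNA level (FPKM, log axis) of Tnni1 and the atrial light chain genes Myl4 and Myl7; WT replicate 2 (blue square) and KO replicate 1 (orange circle) are the highest points for all 3 genes.

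Tnnt2, cardiac troponin T, on chromosome 1 from 135836315 to 135852268, read 9162 and 9892 FPKM of footprints in WT, against 5171 and 9129 in KO. KO replicate 1 stood well below the other libraries, while KO replicate 2 nearly reached WT (-0.47 on the log2 scale with an SE of 0.34, adjusted p = 0.49). Its RNA was 3276 and 3863 FPKM in WT, against 2301 and 1540 in KO (-0.92 on the log2 scale with an SE of 0.34, adjusted p = 0.142), or -1.14 relative to the median. It passed without KO replicate 1 (adjusted p = 0.0318). The KO library with less Tnnt2 RNA had more footprints, and the TE was 2.80 and 2.56 in WT, against 2.25 and 5.93 in KO. Among the troponins with high footprint levels, Tnnt2 had the lowest TE in WT, at 2.68 ± 0.17 (SD, n = 2). Tnnc1 stood at 5.21 ± 0.67 and Tnni3 at 5.76 ± 0.87.

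The skeletal troponin T genes stayed low. Tnnt1, on chromosome 7 from 4504569 to 4515975, read 62.6 and 38.9 FPKM of footprints in WT, against 40.1 and 25.2 in KO (-0.62 on the log2 scale with an SE of 0.41, adjusted p = 0.465), with overlap between the groups. Its RNA was 16.6 and 15.0 FPKM in WT, against 8.35 and 11.0 in KO (-0.72 on the log2 scale with an SE of 0.24, adjusted p = 0.115), clear of each other, and passed without KO replicate 2 (adjusted p = 0.0235). Tnnt3, on chromosome 7 from 142498771 to 142516213, was listed at 0 in WT replicate 2 and KO replicate 1 and at 1.18 and 1.83 FPKM in the remaining libraries (adjusted p = 0.917). Tnnc2, the fast skeletal troponin C, was listed at 0 in WT and at 0.73 and 0.65 FPKM in KO and was not tested. Tnnt2 made up 99.2% to 99.7% of the summed troponin T footprints in all 4 libraries, and Tnni3 99.01% to 99.7% of troponin I. The skeletal muscle markers Myod1 and Myog were listed at 0 in every library, and the 14 markers summed to 23.2 and 38.4 FPKM in WT, against 102 and 57.5 in KO. Mybpc2 made up most of this sum, and the other 13 summed to 4.07 and 13.2 FPKM in WT, against 19.8 and 10.3 in KO, which overlap.

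The 3 subunits join in equal numbers in the protein complex, so their summed footprints were set against Tnnc1. Troponin I stood at 2.11 and 1.75 times Tnnc1 in WT, against 1.62 and 1.57 times in KO. Troponin T stood at 1.17 and 1.15 times in WT, against 0.61 and 1.13 times in KO, and tropomyosin at 5.22 and 5.34 times in WT, against 3.29 and 3.75 times in KO. All 3 ratios were lower in both KO libraries (exact two-sided permutation p = 0.333 each, the smallest possible). They share Tnnc1 as the denominator and so are not separate results. In RNA troponin I was 1.87 and 1.64 times Tnnc1 in WT, against 0.97 and 1.10 in KO, and troponin T 2.37 and 2.13 times in WT, against 0.84 and 0.88 in KO. The RNA ratio of troponin T to Tnnc1 was thus 0.38 times its WT value in KO. That value takes in the RNA differences of Tnnt2 (-0.92) and Tnnc1 (0.47 on the log2 scale), neither of which passed.

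The troponin I and T genes lie in pairs. Tnnt1 and Tnni3 are separated by 2329 bases with 0 annotated genes between them, Tnni1 and Tnnt2 by 25325 bases with Lad1 between, and Tnni2 and Tnnt3 by 54360 bases with Lsp1 between. The members of a pair differed widely in level. In WT footprints Tnni3 stood at 15829 FPKM and Tnnt1 at 50.7, and Tnnt2 at 9527 FPKM and Tnni1 at 81.3.

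Of 15 partners of actin and tropomyosin, 0 passed in footprints, with a median log2 difference of 0.01 and 4 above and 11 below the median of all genes. The largest footprint difference was that of Tmod4, a pointed-end capping protein (-2.42, limma adjusted p = 0.238), at low levels of 9.84 and 10.8 FPKM in WT, against 3.47 and 0 in KO. Next were those of Acta1, the skeletal actin (1.26, adjusted p = 0.383), and Actc1 (-0.75, adjusted p = 0.393). That of Acta1 ranged from 0.41 without KO replicate 2 and 0.54 without WT replicate 1 to 1.98 without WT replicate 2 and 2.12 without KO replicate 1. In RNA 1 of 14 rose (4.2% of tested genes), Acta1, from 22.7 and 38.4 FPKM in WT to 181 and 129 in KO (2.37 on the log2 scale with an SE of 0.31, limma adjusted p = 0.0231). Another fell (1.53% of tested genes), Lmod2, a leiomodin that nucleates actin, from 185 and 223 FPKM to 104 and 100.02 (-0.99 on the log2 scale with an SE of 0.21, limma adjusted p = 0.0486). That call of Lmod2 was lost without WT replicate 1 (adjusted p = 0.225), without WT replicate 2 (0.331), with the replicate number as a block (0.0828) and without the trend (0.0921), and the footprints of Lmod2 overlapped between the groups. The RNA difference of Acta1 ranged from 1.995 (without WT replicate 1) to 2.75 (without WT replicate 2), and its call was lost without the trend (adjusted p = 0.0528). For TE, 0 of 14 partners passed limma's test.

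Among 11 genes listed with the thick filament, 0 passed in footprints, and 6 lay below both WT libraries in both KO libraries (12.1% of tested genes) and 1 above (39.5%). The list takes in Tcap, a Z-disc protein that is not part of the thick filament and is among the 6. The largest footprint differences were those of Myh7, the slow myosin heavy chain (9.78 and 6.31 FPKM in WT, 36.4 and 559 in KO, log2 difference 4.03, adjusted p = 0.218), Tcap, which caps titin (-1.42, adjusted p = 0.114), and Ttn, titin itself (-1.28, adjusted p = 0.175). The KO libraries differed widely in Myh7. In RNA 1 of the 11 fell (1.53% of tested genes), Tcap, by 1.55 on the log2 scale (SE 0.31, limma adjusted p = 0.0444), a call lost without WT replicate 2 (adjusted p = 0.0993) and without the trend (0.0834). For TE, 0 of 11 passed limma's test. Most cardiomyocyte markers outside both lists also read lower in KO, with 7 of 10 below WT in RNA (18.6% of tested genes) and 2 above, Des and Tbx20, and with sums of 13210 and 14010 FPKM in WT, against 7980 and 8453 in KO. Their part in the values of the cardiac troponins and Tpm1 was not tested.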

How the data were processed

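Footprint levels in FPKM and TE ratios were deposited by the authors for each library. The submitters' processing notes name STAR 2.7.4a, Bowtie 1.3.1, Cufflinks 2.2.1, HTSeq 0.13.5, cutadapt 3.7, FastQC 0.11.9 and GRCm38 (mm10). The labels do not say where the RNA behind the deposited TE ratio came from. FPKM divided by TE gave RNA levels of at most 6 significant digits for all 59296 quotients (relative tolerance 1e-10), and a TE of 0 was taken as missing. An error in a footprint level enters TE, and one in RNA enters TE with the opposite sign. Genes with at least 1 FPKM in at least 2 libraries were tested on log2(FPKM + 1), and for RNA and TE on log2 values of genes with a TE above 0 in all 4 libraries, with limma 3.58.1 in R 4.3.3 (trended eBayes, Benjamini-Hochberg over all tested genes, threshold 0.05) and Python 3.11.15. The procedure was run on simulated data with planted differences, and its rates of recovery and of false calls are not given here. Members and lists were chosen with earlier results of these data known. All members, Tnnc2, Tnni2 and the 3 nearest profiles of Tnni1 and Tnni3 are named. So are genes of the actin partner and thick filament lists past the threshold or with the 3 largest footprint differences. Cell type markers past the threshold are not all named. Other genes, such as the atrial ones, Acta2, Tagln, Mybpc2, Des and Tbx20, and the ratios to fibroblast markers were chosen after values were seen. In footprints, same-numbered libraries did not deviate together over the tested genes (r = -0.056). RNA and TE were not checked for this, and a correlation near 0 does not show that libraries are unpaired.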

Additional observations from a re-analysis of the deposited data

How the results depend on the processing

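The alternatives changed the pseudocount, filter, scaling, variance trend, block or libraries. Of 10 members in footprints 0 passed; 1, Tpm2, passed without small RNA genes and with the replicate block, and 0 with any library left out. For RNA 2 passed, 0 without the trend and 2 to 4 with a library left out; for TE 0 passed, and 0 to 1 with a library left out. Over all genes the 57 footprint calls became 34 with a pseudocount of 0.1, 8 with any FPKM above 0, 221 without small RNA genes, 143 with the replicate block, 36 without the trend and 0 with any library left out. The 718 RNA calls became 1429 with the block, 67 without the trend and 704 to 3742 with a library left out; median-ratio scaling moved the split from 526 higher and 192 lower to 327 and 309. The 0 TE calls became 1 with an RNA floor, 178 with the block, 1 without the trend and 0 to 33 with a library left out. Whether the replicate numbers pair the libraries was not settled, since the correlation of same-numbered libraries was taken over footprints only and cannot decide it. The log2 difference of the Tnni1 to Tnni3 ratio was -0.13 in RNA, and 0.15 to 1.85 with a library left out. Median-ratio scaling turned the sign for footprints of Tnnc1 (-0.37) and Lmod2 (-0.21) and the TE of Tnni3 (-0.13), Tnnt1 (-0.062) and Tcap (-0.017). Leaving out a library turned further signs. Footprints then ranged from -0.055 to 0.068 for Tnnc1, -0.19 to 1.62 for Tnni1, -0.56 to 0.94 for Tnnt3 and -0.25 to 0.58 for Lmod2, and RNA from -2.25 to 1.43 for Tnni1. TE ranged from -0.16 to 0.18 for Tnni3, -0.45 to 0.62 for Tnnt1, -0.51 to 0.37 for Tpm3, -0.42 to 0.15 for Tpm4, -1.62 to 3.90 for Tnni1, -0.20 to 1.59 for Tpm2, -0.25 to 1.15 for Tnnt2 and -0.20 to 0.46 for Tcap. A group left with 1 library was assumed to vary like the other. Calls made with a library left out therefore do not measure the spread within that group. The causes were not tested, and the depth in reads is unknown.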
